A study of Arabidopsis thaliana with 10 samples.

Results

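The transcripts that differed after far-red preconditioning in both wild type and the gun1gun5 mutant of Arabidopsis thaliana were taken from the 4 FR arrays and the 4 D arrays of these genotypes, 8 of the 10 arrays of the series. FR seedlings received far-red light before they were moved to white light, and D seedlings went to white light with no far-red first. Sample names call the D seedlings Dpretreated, and the labels leave the letter D unexplained. The groups were WT_FR and WT_D (Col-0) and gun1gun5_FR and gun1gun5_D (a gun1,gun5 double mutant), with 2 arrays each. A phyA-null mutant had 1 FR and 1 D array, which did not enter the comparison and are given beside it. Each sample was a pool of 300 whole young seedlings with cotyledons, hypocotyl and primary root, grown on MS medium at 22 °C in continuous light. Labels give 1.5% sucrose for each WT_D sample, and WT_D replicate 2 also lists 5 µM of norflurazon, a herbicide that blocks the making of carotenoids. They list no sucrose for any other sample, so that far-red and the listed sucrose cannot be told apart in WT, while the gun1gun5 groups list the same medium. The labels do not say whether replicates came from separate cultures, so the p-values cover the spread among these samples, which may be technical. The probe sets of PHYA, GUN1 and GUN5 were not named here, and the mutations were not checked.

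Phytochrome A is the receptor for far-red light and in seedlings drives light responses under light that supports little chlorophyll synthesis. Seedlings held in far-red light make chloroplast proteins but do not green, and long far-red treatment impairs later greening in white light. GUN1 and GUN5 belong to the signalling by which the state of the plastid alters nuclear gene expression, GUN5 being a subunit of the magnesium chelatase of chlorophyll synthesis. A difference that is shared by WT and gun1gun5 is one seen in wild type and in plants labelled as mutant in both genes. How much of either function was left in the mutant was not checked. The comparison therefore asked which transcripts differed after far-red on average over the genotypes, and whether each genotype showed the difference.

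The measurements were probe-set intensities of Affymetrix ATH1 arrays, scaled by the authors to a common mean. Array medians of the 8 arrays lay between 35.6 and 40.4 intensity units, and 29.0% to 32.3% of values were under 16, the level below which a value was treated as a bound. Within a group, Spearman's rho between arrays was 0.979 to 0.983 over all probe sets, against 0.944 to 0.974 for arrays of different groups among the 8. On the first principal component of the 8 arrays, with 38.3% of the variance, the FR arrays lay at 36.7 and 41.6 in WT and at 7.18 and 6.91 in gun1gun5. The D arrays lay at -16.8 and -20.8 in WT and at -24.2 and -30.6 in gun1gun5. The actin control's ratio of 3′ to 5′ signal, a measure of RNA integrity, was 2.41 and 3.59 in WT_FR against 1.94 and 2.13 in WT_D, and 1.58 and 2.17 in gun1gun5_FR against 1.91 and 2.16 in gun1gun5_D. Its part in the results was not tested. In whole seedlings, fewer cells of a type and less RNA per cell cannot be told apart.

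Of 22746 probe sets, 2801 passed at an adjusted p under 0.05 in the limma fit of FR against D with genotype as a term, which is 12.3% of those tested. Higher after far-red were 1211 (5.32%) and lower 1590 (6.99%). Counts of gene lists and families below are to be read beside these shares. In 2779 of them (12.2% of all probe sets, and 99.2% of those that passed) both FR arrays also lay on the same side of both D arrays in WT and in gun1gun5. These agreeing probe sets, 1200 higher (5.28%) and 1579 lower (6.94%), are the ones meant below by "rose" and "fell". No probe set passed with opposite signs in the genotypes. The fit with genotype as a term counts unequal differences as spread, and agreement was read from the same arrays. The 99.2% and the lack of opposite signs therefore follow in part from the fit and are no separate test of agreement. With all 10 arrays and 6 group means, 3233 agreed where 3733 passed. Above the 60th percentile of mean level, 2536 agreed where 2772 passed. In a fit of the 4 group means, where the genotypes share 1 estimate of the spread, both genotypes' own differences passed in the same direction for 679 probe sets, all of them among the 2801. Another 925 passed on average although neither genotype's own difference passed there. In 22 of the 2801 the FR and D arrays overlapped in at least 1 genotype. The arrays did not overlap in either genotype for 5458 probe sets in all, 2494 higher and 2964 lower, of which 2679 did not pass.

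The larger differences ran mostly downward. At least 2-fold on average were 87 of the agreeing probe sets that rose and 288 of those that fell. A 2-fold difference in each genotype by itself was seen for 45 that rose and 172 that fell. The median log2 difference of the agreeing probe sets that rose was 0.50 in WT and 0.51 in gun1gun5. For those that fell it was -0.68 in WT and -0.55 in gun1gun5, against medians near 0 over all probe sets in both. Signal set a limit for some of them, since 201 of the agreeing probe sets had all FR arrays under 16 and 117 had all D arrays under 16. With all 8 arrays under 16 there were 62 (2.23% of the agreeing ones), beside 4888 of all probe sets (21.5%). A probe set had 1 gene in 1422 of the 2779 cases, 645 of them higher and 777 lower, and the others are not named. The number that passed was 1769 without WT_D replicate 1, and 1748 and 1782 without gun1gun5_FR replicates 1 and 2. It was 1850 without gun1gun5_D replicate 2. Without WT_D replicate 2, the array with norflurazon on its label, 2046 passed. Fits of only the 4 WT arrays or only the 4 gun1gun5 arrays gave 1125 and 634 calls.

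**Figure D1:**
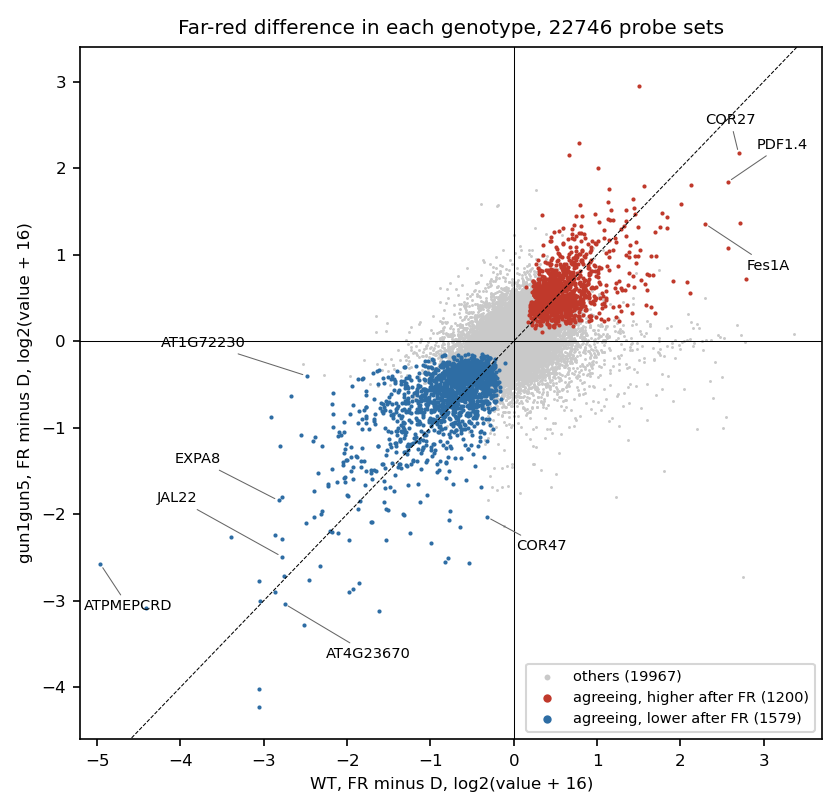
Log2 difference of FR minus D arrays in WT (x axis) and in gun1gun5 (y axis), on log2(value + 16), for each of 22746 probe sets, with the agreeing ones in colour and the dashed line marking equal differences. The 1200 that rose lie at the upper right and the 1579 that fell at the lower left, with ATPMEPCRD, whose FR values were all under 16, at -3.77 on average on this scale.

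Among named genes with a symbol, the one with the greatest rise on average was COR27, a cold-regulated gene whose protein acts with the circadian clock. COR27 read 222.6 and 249.5 in WT_FR against 28.7 and 17.6 in WT_D, and 567.8 and 506.3 in gun1gun5_FR against 232.9 and 44.6 in gun1gun5_D. Every FR array exceeded every D array of its genotype, but the D replicates were far apart in gun1gun5. The average difference was 2.43 ± 0.38 log2 units (SE, limma adjusted p = 0.00669). It was 2.70 in WT and 2.17 in gun1gun5.

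A few genes known here by locus code alone had the same layout. AT1G56300 read 473 and 566.9 in WT_FR against 139.6 and 80.2 in WT_D, and 747.6 and 753.8 in gun1gun5_FR against 327.6 and 124.8 in gun1gun5_D. AT4G33980 read 105.1 and 108.4 in WT_FR against 33.7 and 18.5 in WT_D, and 282.2 and 226.5 in gun1gun5_FR against 127.6 and 25.7 in gun1gun5_D. In both, as in COR27, gun1gun5_D replicate 1 stood well above gun1gun5_D replicate 2 while the FR replicates lay close together. They rose by 1.96 ± 0.27 and 1.68 ± 0.34 log2 units (limma adjusted p = 0.00439 and 0.0169). In the fit of the 4 group means AT4G33980 passed in neither genotype by itself (limma adjusted p = 0.0947 in WT and 0.0909 in gun1gun5). AT4G33980 was at 1.60 and no longer passed (adjusted p = 0.0543) without gun1gun5_FR replicate 1.

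PDF1.4, a gene of the plant defensin family of small antimicrobial peptides, read 687.1 and 738.6 in WT_FR against 131 and 86.3 in WT_D, and 170.2 and 140.5 in gun1gun5_FR against 42.6 and 22.8 in gun1gun5_D. WT values were above gun1gun5 values in both treatments, and FR and D arrays did not overlap within a genotype. The rise was 2.57 in WT and 1.84 in gun1gun5, 2.21 ± 0.20 on average (limma adjusted p = 0.00101). DI21, named for its induction by drought, read 176.2 and 189.2 in WT_FR against 62.4 and 61.3 in WT_D, and 92.2 and 96.5 in gun1gun5_FR against 25.8 and 37.6 in gun1gun5_D. Its replicates were close in every group, and it rose by 1.29 ± 0.10 (limma adjusted p = 0.000612).

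Among the genes that rose, some act in protein folding or turnover, which was not a list of its own. Fes1A, a partner of cytosolic Hsp70 chaperones, read 1257.5 and 1054.9 in WT_FR against 302.7 and 161.4 in WT_D, and 340.2 and 249 in gun1gun5_FR against 99.7 and 108.4 in gun1gun5_D. WT_FR stood highest and the genotypes' FR groups were far apart, with a rise of 2.30 in WT and 1.36 in gun1gun5 (average 1.83 ± 0.25, limma adjusted p = 0.00398). Its relative Fes1C read 95.9 and 83 in WT_FR against 39.9 and 48.4 in WT_D, and 171 and 163.6 in gun1gun5_FR against 94.5 and 68.1 in gun1gun5_D, without overlap within a genotype. Fes1C rose by 0.87 ± 0.11 (limma adjusted p = 0.00314). CRT1b, a calreticulin of the endoplasmic reticulum, rose by 0.64 ± 0.10, and SGT1A, a co-chaperone of disease-resistance proteins, by 0.79 ± 0.10 (limma adjusted p = 0.00646 and 0.00305).

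TPP2, the large cytosolic peptidase tripeptidyl peptidase II, read 629.4 and 657 in WT_FR against 318.1 and 322.1 in WT_D, and 823.5 and 774.2 in gun1gun5_FR against 466.5 and 429.6 in gun1gun5_D. The replicates of a group differed little, and the rise was 0.89 ± 0.07 (limma adjusted p = 0.000612). PUB22, a U-box ubiquitin ligase that dampens immune responses, rose by 0.65 ± 0.09 and RING1, a RING-type ubiquitin ligase, by 0.65 ± 0.09 (limma adjusted p = 0.00418 and 0.00436).

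A few genes of stored reserves or their use were among those that rose. ICL, the isocitrate lyase of the glyoxylate cycle through which seed oil is turned into sugar, read 2625.9 and 2504 in WT_FR against 803.4 and 696.2 in WT_D, and 1850.4 and 2281.5 in gun1gun5_FR against 892.6 and 740.3 in gun1gun5_D. All FR arrays lay above all D arrays of both genotypes, and ICL rose 2.9-fold on values with 16 added (1.54 ± 0.13 log2 units, limma adjusted p = 0.000689). Of the 3 probe sets of the list of oil use and the glyoxylate cycle, ICL was the one that passed. PAP85, a vicilin-like seed storage protein, read 206.6 and 101.4 in WT_FR against 36.2 and 49.5 in WT_D, and 221.9 and 195.5 in gun1gun5_FR against 85.2 and 85.5 in gun1gun5_D. It rose by 1.31 ± 0.19 (limma adjusted p = 0.0055). PWD, the phosphoglucan water dikinase needed for starch breakdown, rose by 0.78 ± 0.11, and the asparaginase ASPGB1 by 0.91 ± 0.18 (limma adjusted p = 0.00411 and 0.0146).

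Several nuclear and RNA-related proteins rose with smaller differences. BSH, the SNF5-type subunit of SWI/SNF chromatin remodelling complexes, read 97.3 and 97.4 in WT_FR against 45 and 61 in WT_D, and 126.2 and 116.2 in gun1gun5_FR against 64.6 and 65.6 in gun1gun5_D. CHC1, a SWI/SNF subunit of the BAF60 type, read 255.4 and 225.1 in WT_FR against 135.7 and 136.7 in WT_D, and 513.7 and 460.1 in gun1gun5_FR against 276.5 and 219.1 in gun1gun5_D. In both genes all FR values exceeded all D values of the same genotype. BSH rose by 0.74 ± 0.09 and CHC1 by 0.84 ± 0.09 (limma adjusted p = 0.00301 and 0.00199).

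MAC3B, a ubiquitin ligase of the spliceosome-associated MOS4 complex, read 1041.2 and 780.8 in WT_FR against 498.1 and 462.1 in WT_D, and 1362 and 1425 in gun1gun5_FR against 677 and 586.4 in gun1gun5_D. It rose by 1.01 ± 0.11 (limma adjusted p = 0.00173). Lesser rises were seen for the nucleolar RNA helicase PRH75 (0.74 ± 0.14), the nucleoporin SEH1H (0.69 ± 0.11) and PEP, the KH-domain RNA-binding protein PEPPER (0.63 ± 0.10), each past the threshold (limma adjusted p = 0.0137, 0.00654 and 0.00819). CYP71B26, a cytochrome P450, rose by 1.27 ± 0.12, and the glycosyltransferase UGT84A3 rose by 0.98 ± 0.16. UGT85A4, of the same family, had all D arrays under 16 and was at least 1.85-fold higher in WT and at least 2.14-fold higher in gun1gun5. FOLB2, of folate synthesis, rose by 0.69 ± 0.12, and the glucosidase-family gene BGLU44 by 0.77 ± 0.14 (limma adjusted p between 0.00113 and 0.011 for these 5). Among the 30 genes with a symbol and the largest rise in their weaker genotype, averages ran from 0.51 to 2.43 log2 units.

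**Figure D2:**
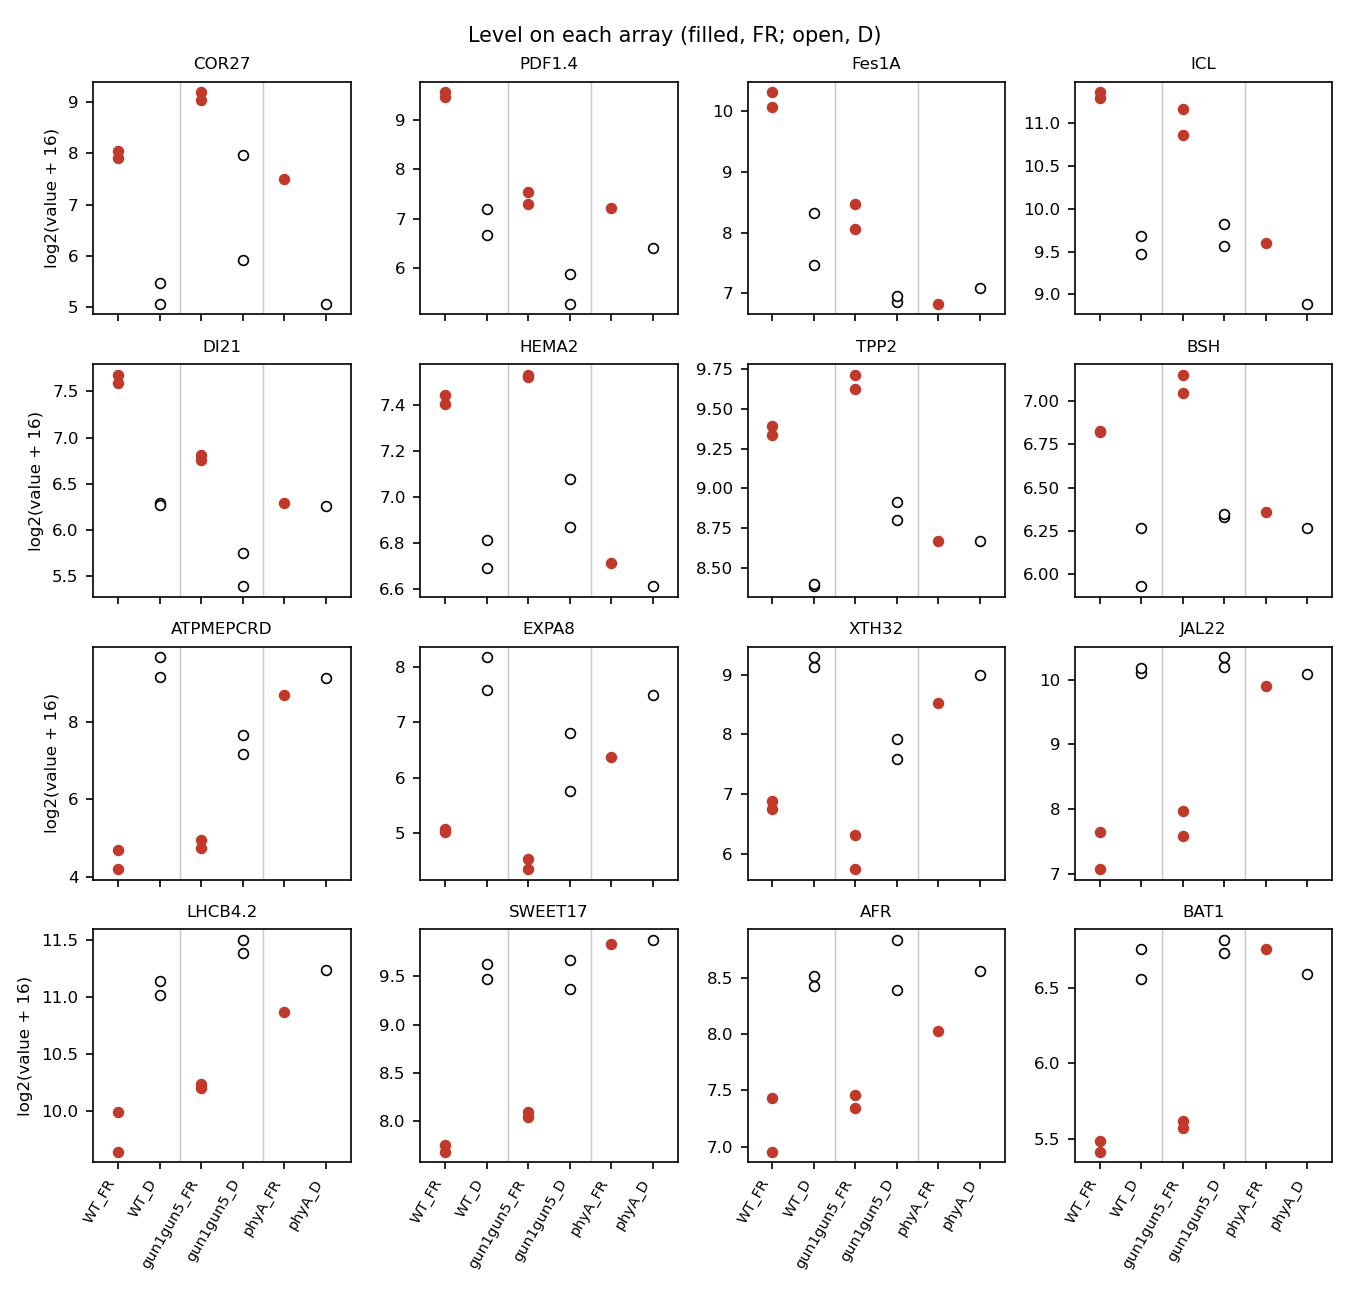
Level of 16 named genes on each array as log2(value + 16), for WT, gun1gun5 and phyA, with FR arrays filled and D arrays open. The upper 8 genes rose after far-red in WT and gun1gun5 and the lower 8 fell, and phyA_FR lies near phyA_D for genes such as DI21, TPP2, SWEET17 and BAT1.

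Genes of the cell wall were among those that fell most. ATPMEPCRD, a pectin methylesterase, which removes methyl groups from wall pectin, read 9.7 and 2.3 in WT_FR against 790.9 and 548.7 in WT_D, and 14.7 and 10.5 in gun1gun5_FR against 127.4 and 186.6 in gun1gun5_D. All FR arrays were under 16, so the fall is a bound, the mean of the D arrays over 16, and is at least 41.9-fold in WT and at least 9.81-fold in gun1gun5 (limma adjusted p = 0.00261 on average). EXPA8, an expansin that loosens walls during growth, read 16.3 and 17.8 in WT_FR against 271 and 174.4 in WT_D, and 7.1 and 4.4 in gun1gun5_FR against 38.3 and 95.6 in gun1gun5_D. Again the FR arrays lay near or under 16 while WT_D was well above gun1gun5_D. EXPA8 differed by -2.82 log2 units in WT and, with both gun1gun5_FR arrays under 16, was at least 4.18-fold lower in gun1gun5 (limma adjusted p = 0.00278 on average).

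XTH32, which cuts and rejoins xyloglucan chains, read 91.6 and 102.5 in WT_FR against 545.5 and 610 in WT_D, and 37.6 and 63.5 in gun1gun5_FR against 175.9 and 227.5 in gun1gun5_D. The groups did not overlap within a genotype, and XTH32 fell by 2.06 ± 0.18 (limma adjusted p = 0.000853). EXGT-A3 (XTH27) of the same family read 1051.3 and 1010.2 in WT_FR against 1560.3 and 1419.2 in WT_D, and 1212.5 and 1365.8 in gun1gun5_FR against 1787.8 and 2055.2 in gun1gun5_D. It fell by 0.55 ± 0.08 (limma adjusted p = 0.00537). Of 10 xyloglucan endotransglucosylase probe sets these 2 fell and none rose, in the full fit and in every fit that left out 1 array. The median over the 10 was 0.00, and 6.99% of all probe sets passed lower. Averages of the 10 ran from -2.06 to 1.00, and at an unadjusted p under 0.05 in limma 1 was higher and 3 were lower.

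Among 19 expansin probe sets 4 fell and none rose, with a median of -0.03, beside 6.99% lower and 5.32% higher over all probe sets. The count was 2 without any WT array or gun1gun5_D replicate 2. EXPB3 read 25.1 and 37.2 in WT_FR against 189.8 and 197.9 in WT_D, and 21.2 and 24.7 in gun1gun5_FR against 40.2 and 70.4 in gun1gun5_D, log2 differences of -2.17 in WT and -0.84 in gun1gun5 (limma adjusted p = 0.0121 on average). GH9B8, a glycosyl hydrolase of the cellulase family 9, read 6.5 and 10.3 in WT_FR against 47.7 and 40.1 in WT_D, and 4.8 and 2.6 in gun1gun5_FR against 16.8 and 19.9 in gun1gun5_D. With all FR arrays under 16 the fall was at least 2.74-fold in WT and at least 1.15-fold in gun1gun5 (limma adjusted p = 0.00263 on average). Of 15 GH9 probe sets 3 fell and none rose, with a count of 1 without WT_FR replicate 2, WT_D replicate 1 or gun1gun5_D replicate 2. None of 8 cellulose synthase family probe sets and none of 4 on the pectin list passed in the limma fit, with 2 and 0 at an unadjusted p under 0.05. That list was filled by gene descriptions and did not hold ATPMEPCRD.

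Some of the largest falls were in genes known here by locus code alone. AT4G23670 read 203.1 and 326.6 in WT_FR against 1858.5 and 1799.2 in WT_D, and 161.7 and 145.8 in gun1gun5_FR against 1212.2 and 1560.3 in gun1gun5_D. Its D values were several times its FR values in both genotypes, a difference of -2.89 ± 0.15 log2 units (limma adjusted p = 0.00025). AT1G09310 read 208.3 and 579.6 in WT_FR against 1978.1 and 2183 in WT_D, and 49.6 and 89.5 in gun1gun5_FR against 580.3 and 1086.5 in gun1gun5_D, with wide FR replicates in WT, and fell by 2.90 ± 0.35 (limma adjusted p = 0.00263). AT3G53980 read 6.6 and 3.5 in WT_FR against 73.5 and 89.5 in WT_D, and 3.7 and 5 in gun1gun5_FR against 36.4 and 148.5 in gun1gun5_D. All its FR arrays were under 16, and it was at least 5.09-fold lower in WT and at least 5.78-fold lower in gun1gun5 (limma adjusted p = 0.00443 on average).

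AT3G26450, AT5G37790 and AT2G26690 fell, with differences of -2.16 ± 0.27, -2.29 ± 0.21 and -2.15 ± 0.11 (limma adjusted p = 0.00302, 0.000952 and 0.00025). AT2G26690 is NPF6.2, of the nitrate and peptide transporter family, and read 181.3 and 150.4 in WT_FR against 875.9 and 893.3 in WT_D, and 201.7 and 241.7 in gun1gun5_FR against 840.5 and 1026.5 in gun1gun5_D. The 4 FR values of NPF6.2 lay far below the 4 D values. AT3G05730 fell by 1.85 ± 0.26 (limma adjusted p = 0.00443). AT5G63180 and AT1G66100 had both gun1gun5_FR arrays under 16, with falls of at least 5.12-fold and at least 3.88-fold in gun1gun5. In WT they differed by -2.50 and -1.99 (limma adjusted p = 0.000911 and 0.000612 on average).

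Other genes that fell are described next. JAL22, a jacalin-related lectin, read 183.3 and 118.2 in WT_FR against 1078.6 and 1143.1 in WT_D, and 235.6 and 176.1 in gun1gun5_FR against 1158.1 and 1283.5 in gun1gun5_D. WT and gun1gun5 had similar levels in each treatment, and JAL22 fell by 2.64 ± 0.15 (limma adjusted p = 0.00025). LCR68, also called PDF2.3 and like PDF1.4 a defensin-type gene, moved the other way from PDF1.4. It read 160.1 and 244.4 in WT_FR against 743 and 700.8 in WT_D, and 85.1 and 120 in gun1gun5_FR against 348 and 361.7 in gun1gun5_D. It fell by 1.72 ± 0.14 (limma adjusted p = 0.000667). The thionin THI2.2, an antimicrobial peptide gene, fell by 1.29 ± 0.19. The cysteine protease CP1 fell by 1.64 ± 0.15 and the peroxidase PRXR1 fell by 1.33 ± 0.19 (limma adjusted p = 0.00101 and 0.00469, and 0.00581 for THI2.2). ECS1 read 438.9 and 426.3 in WT_FR against 1354.1 and 1064.5 in WT_D, and 65.2 and 74.5 in gun1gun5_FR against 179.5 and 400.3 in gun1gun5_D. It fell by 1.59 ± 0.22 (limma adjusted p = 0.0042).

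Sugar transporters of the SWEET family, which let sugars cross membranes along their gradient, fell wherever they passed the test. Of 16 SWEET probe sets 5 fell, none rose and 11 did not pass, and 5 passed lower with any 1 array left out. The median of the 16 was -0.26, beside 0.00 over all probe sets, of which 6.99% passed lower. SWEET17, a fructose transporter of the vacuole, read 199.3 and 188.8 in WT_FR against 776.5 and 692.9 in WT_D, and 247.4 and 255.9 in gun1gun5_FR against 644.9 and 800.5 in gun1gun5_D. The FR values of both genotypes lay far below every D value, and SWEET17 fell by 1.65 ± 0.11 (limma adjusted p = 0.000337).

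SWEET11, a sucrose exporter in phloem loading, read 417.4 and 454.9 in WT_FR against 1167.6 and 1161.4 in WT_D, and 737.3 and 719.3 in gun1gun5_FR against 1417.7 and 1541.1 in gun1gun5_D. Its replicates were close, and it fell by 1.20 ± 0.09 (limma adjusted p = 0.000622). SWEET3 read 20.4 and 22.7 in WT_FR against 85.6 and 64 in WT_D, and 18.4 and 14 in gun1gun5_FR against 67.6 and 107.7 in gun1gun5_D. It fell by 1.46 ± 0.16 (limma adjusted p = 0.00189). The vacuolar transporters SWEET16 and SWEET2 fell, with differences of -0.72 ± 0.09 and -0.64 ± 0.13 (limma adjusted p = 0.00355 and 0.0174). TMT2, which loads glucose and fructose into the vacuole, read 72.4 and 72.7 in WT_FR against 139.7 and 177.8 in WT_D, and 85.6 and 80.6 in gun1gun5_FR against 156.3 and 158.7 in gun1gun5_D. It fell by 0.89 ± 0.09 (limma adjusted p = 0.00136). In gun1gun5, where no sucrose is listed for either treatment, the differences were -1.46 for SWEET17, -1.01 for SWEET11, -1.66 for SWEET3, -0.63 for SWEET16, -0.43 for SWEET2 and -0.81 for TMT2.

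Photosynthesis genes that could be named were few. The antenna proteins LHCB4.2 and LHCB4.3, minor chlorophyll-binding proteins of photosystem II, fell, and the third antenna probe set, LHCB4.1, did not pass. LHCB4.2 read 1004.2 and 785.4 in WT_FR against 2058.4 and 2235.9 in WT_D, and 1165.9 and 1193.6 in gun1gun5_FR against 2652.9 and 2876 in gun1gun5_D. The lowest D value was well above the highest FR value in both genotypes, and LHCB4.2 fell by 1.24 ± 0.09 (limma adjusted p = 0.000544). LHCB4.3 read 132.1 and 149.5 in WT_FR against 414.2 and 568.4 in WT_D, and 114.7 and 136.6 in gun1gun5_FR against 276.8 and 521.2 in gun1gun5_D. It fell by 1.58 ± 0.19 (limma adjusted p = 0.00263).

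Nuclear subunits of the photosystems and the ATP synthase fell for 4 of 6 probe sets, with a median of -0.30 and none higher. Over all probe sets 6.99% passed lower. PSBY, of photosystem II, read 2095.2 and 2003.5 in WT_FR against 2487.2 and 2755.2 in WT_D, and 2349.1 and 2337.5 in gun1gun5_FR against 2980.6 and 3224.6 in gun1gun5_D. Its difference of -0.38 ± 0.08 was small beside those of the LHCB4 genes (limma adjusted p = 0.0162). Without gun1gun5_FR replicate 1 or gun1gun5_FR replicate 2 none of the 6 passed, with PSBY at -0.37 in both. Without a WT_D array or gun1gun5_D replicate 1 there were 2, and without gun1gun5_D replicate 2 there was 1. Of 3 Calvin cycle probe sets SBPASE, the sedoheptulose-bisphosphatase, fell by 0.39 ± 0.08 (limma adjusted p = 0.0185). It ranged from -0.41 to -0.35, with no call, without WT_FR replicate 2, WT_D replicate 1, either gun1gun5_FR array or gun1gun5_D replicate 2.

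Tetrapyrrole synthesis, which makes chlorophyll and haem, did not move one way. Of 9 probe sets 2 rose, 1 fell and 6 did not pass, with a median of 0.02. Shares over all probe sets were 5.32% higher and 6.99% lower. HEMA2, one of the glutamyl-tRNA reductases with which the pathway begins, read 153.2 and 158.1 in WT_FR against 87.3 and 96.5 in WT_D, and 168.8 and 167.8 in gun1gun5_FR against 119 and 100.7 in gun1gun5_D. It rose by 0.61 ± 0.08 (limma adjusted p = 0.00323) and kept its call without any 1 array. HEMB1, an aminolevulinate dehydratase further along it, averaged 0.29 ± 0.07, and HEME2, the uroporphyrinogen decarboxylase, averaged -0.35 ± 0.09 (limma adjusted p = 0.0295 and 0.0391). HEMB1 kept its call when WT_FR replicate 2 was left out and HEME2 likewise, and both lost it without any other array, at 0.25 to 0.31 and at -0.39 to -0.28.

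Of the 69 probe sets of the plastid genome 62 did not pass, 7 passed lower, and 5 of these fell in both genotypes. The median of the 69 was -0.20. Over all probe sets 6.99% passed lower and 5.32% higher. atpI, a subunit of the plastid ATP synthase, read 64.2 and 66.2 in WT_FR against 115 and 155.7 in WT_D, and 88.3 and 90.5 in gun1gun5_FR against 129.6 and 195.6 in gun1gun5_D. It fell by 0.81 ± 0.14 (limma adjusted p = 0.00853). The count of plastid probe sets that passed lower was 12 without gun1gun5_D replicate 1, 1 without gun1gun5_D replicate 2, and 2 to 4 without any other array. The 25S rRNA control ranged from 314.8 to 3003.8 over the 8 arrays, with both extremes in D arrays, and its part in the plastid values was not tested. Of 23 mitochondrial probe sets nad4 passed higher, at 0.31 ± 0.08 (limma adjusted p = 0.0493), and lost the call, at 0.24 to 0.35, without any 1 array.

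Genes of hormone and light signalling were represented by single members. AFR, a Kelch-repeat F-box protein named for the attenuated far-red response of plants with less of it, acts in phytochrome A signalling. It read 156.4 and 107.9 in WT_FR against 350.4 and 327.5 in WT_D, and 146.3 and 159.7 in gun1gun5_FR against 320.1 and 441.3 in gun1gun5_D. FR and D values lay far apart in both genotypes, and AFR fell by 1.25 ± 0.13 (limma adjusted p = 0.00154). HYH and FHL, the phytochrome signalling genes of the list that had a named probe set, did not pass in the limma fit or at an unadjusted p under 0.05, at -0.17 ± 0.17 and 0.03 ± 0.13.

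GH3.17, which conjugates auxin to an amino acid, read 96.5 and 102.6 in WT_FR against 265.1 and 200.1 in WT_D, and 86.7 and 94.7 in gun1gun5_FR against 172.3 and 186.5 in gun1gun5_D. It fell by 0.98 ± 0.10 (limma adjusted p = 0.00149). Among 11 auxin-response probe sets 2 fell and none rose, the other being GH3.9, with 1 left where WT_FR replicate 1, WT_D replicate 1, either gun1gun5_FR array or gun1gun5_D replicate 2 was left out. BAT1, a BR-related acyltransferase of brassinosteroid metabolism, read 28.7 and 26.6 in WT_FR against 92.4 and 78.1 in WT_D, and 31.6 and 33.1 in gun1gun5_FR against 96.8 and 90.1 in gun1gun5_D. Its FR and D values differed almost equally in the genotypes, by -1.21 in WT and -1.18 in gun1gun5 (average -1.19 ± 0.09, limma adjusted p = 0.000481). XERICO, a RING protein that raises abscisic acid levels, fell by 0.88 ± 0.08, and RALFL32, a RALF-type signal peptide, fell by 1.07 ± 0.08 (limma adjusted p = 0.000853 and 0.000474).

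Other genes that fell included HIS1-3, a linker histone variant induced by drought, at -1.24 ± 0.16. PMEAMT, a phosphoethanolamine methyltransferase of phosphocholine synthesis, fell by 1.39 ± 0.17 (limma adjusted p = 0.00339 and 0.00257). The beta-glucosidase BGLU19 had differences of -1.37 in WT and -1.42 in gun1gun5. SAH7 fell by 1.25 ± 0.16 and ZW9 fell by 1.23 ± 0.13 (limma adjusted p = 0.00301 and 0.00154, and 0.00379 for BGLU19 on average). TRM22 read between 1.3 and 2.1 on the FR arrays, and between 13.3 and 16.1 on the D arrays. The TRM22 values lay at or under the floor of 16 on nearly every array, so no fold is given.

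Gene families were grouped by the letters of their symbols, and some with several called members are given here. Over all probe sets 6.99% passed lower and 5.32% higher. Of 11 prenylated Rab acceptor (PRA) probe sets, whose proteins act in membrane traffic, 4 fell, with a median of -0.33. PRA8 read 285.9 and 262.8 in WT_FR against 562.7 and 485.9 in WT_D, and 244 and 218.6 in gun1gun5_FR against 507.7 and 443.8 in gun1gun5_D. It fell by 0.94 ± 0.08 (limma adjusted p = 0.000853), and PRA7 and PRA1.F1 fell, at -0.54 ± 0.07 and -0.71 ± 0.14. Of 15 tetraspanins (TET), membrane proteins with 4 spans, 4 fell, with TET2 at -0.86 ± 0.13 and TET7 at -0.71 ± 0.10 (limma adjusted p = 0.00557 and 0.00515). Their count was 2 without WT_FR replicate 1, WT_D replicate 1 or gun1gun5_FR replicate 2. These shares are descriptions of lists drawn up with the values known.

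Serine carboxypeptidase-like (SCPL) genes had 5 of 29 lower and 1 higher, scpl42. Of these scpl25, at -0.96 ± 0.19, and scpl29, at -0.70 ± 0.11, kept their calls without any 1 array, and 2 passed lower without either WT_D array or gun1gun5_FR replicate 1. Without WT_FR replicate 1 or 2 or gun1gun5_D replicate 2 there were 3. The higher scpl42, at 0.49, lost its call in several fits that left out 1 array. It was at 0.43 to 0.49 without WT_FR replicate 1, WT_D replicate 2, either gun1gun5_FR array or gun1gun5_D replicate 2. Beta-glucosidases (BGLU) had 3 of 20 lower and 1 higher. Of the lower ones BGLU40, at -0.69, lost its call, at -0.75 to -0.56, without any array but gun1gun5_D replicate 1. Trichome birefringence-like (TBL) genes had 2 of 22 lower and 1 higher, and cytochromes P450 (CYP) had 2 of 26 higher. The lower TBL25, at -0.56, lost its call, at -0.58 to -0.47, without any WT array, gun1gun5_FR replicate 1 or gun1gun5_D replicate 1. The higher TBL41, at 0.43, lost its call, at 0.33 to 0.44, without any array but WT_D replicate 2 or gun1gun5_FR replicate 2. The counts of UGT glycosyltransferases lay near the shares over all probe sets, 6.99% lower and 5.32% higher. UGT glycosyltransferases had 4 of 51 lower and 2 higher, with 2 lower without WT_FR replicate 2, WT_D replicate 2 or gun1gun5_D replicate 2. None of 11 GSTU probe sets passed in the limma fit, with 4 at an unadjusted p under 0.05, while 1 passed without WT_FR replicate 1 and 2 without gun1gun5_D replicate 1. Of all 14 glutathione transferases GSTF4 alone fell, at -0.55 in WT and at least 2.02-fold in gun1gun5, whose FR arrays were under 16 (limma adjusted p = 0.0146 on average), with 2 lower calls without WT_FR replicate 1 and 3 without gun1gun5_D replicate 1. None of 4 light-stress probe sets passed in limma, with 0 at an unadjusted p under 0.05. Of 8 late embryogenesis abundant and seed-protein probe sets AT2G44060 (LEA26) fell, at -0.43 ± 0.07.

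Anthocyanin synthesis had 1 of 5 probe sets lower, the dihydroflavonol reductase DFR, at -0.95 ± 0.23 (limma adjusted p = 0.0314). Over all probe sets 6.99% passed lower. Glucosinolate enzymes also had 1 of 5 lower, AOP1, at -0.83 ± 0.18 (limma adjusted p = 0.0209). Both fell more in WT, with -1.47 and -1.15, than in gun1gun5, with -0.43 and -0.51, although the interaction did not pass for either (limma adjusted p = 0.172 and 0.414). DFR kept its call without gun1gun5_FR replicate 2 or gun1gun5_D replicate 1 and lost it without any other array, at -1.01 to -0.75. AOP1 lost it, at -0.79 to -0.75, without any WT array or gun1gun5_D replicate 2. Of the 6 probe sets on the peroxidase list, which was filled by gene descriptions and did not hold PRXR1, 1 rose and 1 fell. These were Prx37, at 0.51 ± 0.13, and AT5G66390 (PRX72), at -1.33 ± 0.34. Prx37 lost its call, at 0.40 to 0.54, without any array but gun1gun5_D replicate 1, and PRX72, at -1.46 to -1.08, without any array but gun1gun5_D replicate 2.

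**Figure D3:**
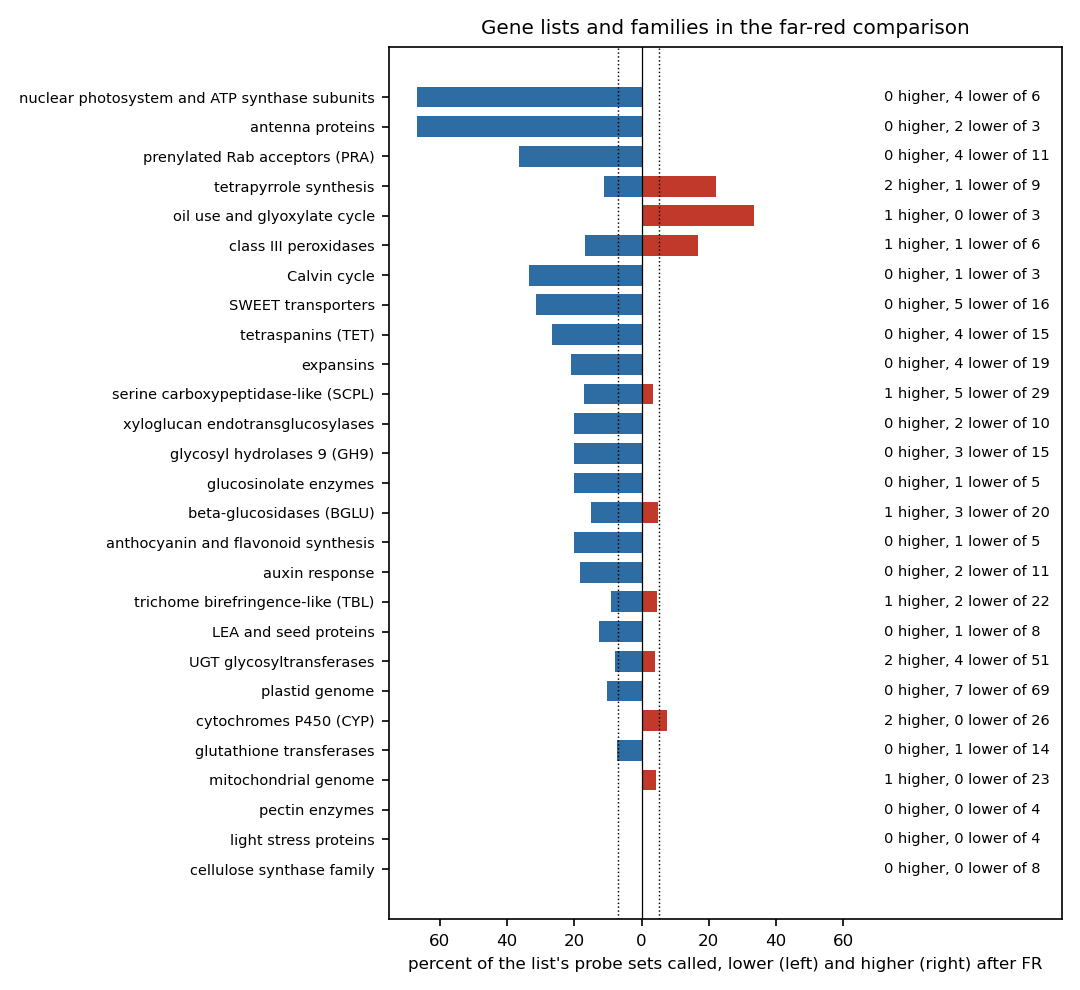
Share of each gene list's or family's probe sets that passed lower (left) or higher (right) after far-red in the fit over WT and gun1gun5, in percent, with counts at the right and dotted lines at the shares over all probe sets, 6.99% lower and 5.32% higher. Photosystem, antenna, PRA, SWEET and TET lists lean to the left, while cellulose synthase probe sets show no calls.

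Summed markers of mesophyll, root, epidermis and dividing cells lay far above 16 on all 8 arrays. Those of guard cells, vascular tissue and seed were dim. The summed level of the 4 mesophyll markers, of which LHCB4.2 and LHCB4.3 fell, was 6121.1 to 7283.9 on FR arrays and 8149.8 to 11034.6 on D arrays. The 3 root markers, led by PYK10 of root and hypocotyl endoplasmic reticulum bodies, summed to 2222.4 to 2729.2 on FR arrays and 2664 to 3204.3 on D arrays, and none passed in limma (0 at an unadjusted p under 0.05). Of 4 epidermal markers AT3G23840 passed lower, and the sums overlapped, at 588.5 to 902.7 on FR arrays and 715.7 to 866.4 on D arrays. That call was lost, at -0.42 to -0.36, without either gun1gun5_FR array, either WT_D array, WT_FR replicate 2 or gun1gun5_D replicate 2.

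Of 8 markers of dividing cells the Aurora kinase AUR1 fell, at -0.68 ± 0.10 (limma adjusted p = 0.00473), and the sums overlapped, at 489.5 to 969.1 on FR arrays and 584 to 851.5 on D arrays. Of 3 vascular markers IRX15-L, of xylan synthesis, fell, at least 1.98-fold in WT and at least 1.76-fold in gun1gun5, with all FR arrays under 16 (limma adjusted p = 0.00706 on average), with sums of 69.6 to 74.8 on FR arrays and 79.4 to 107.6 on D arrays. Guard cell markers, with 3 probe sets, and the seed marker OLEO3 did not pass in limma, with 0 at an unadjusted p under 0.05. The guard cell sums were 36.3 to 67.3 on FR arrays and 40.4 to 49.5 on D arrays. OLEO3 read 18.2 to 25.3 on FR arrays and 19.3 to 24.8 on D arrays. No marker was at 0 on any array, but 1 guard cell and 1 vascular marker were under 16 on all 8. Detection of guard cells, vascular tissue or seed on every array is therefore not shown. Whether changed proportions of cells had a part in the falls of wall, sugar or photosynthesis genes was not tested.

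Whether a difference was of equal size in the genotypes was tested by the interaction. The interaction, the difference of gun1gun5 minus the difference of WT, passed for 215 probe sets (0.945%). Of these, 19 were among the 2801 (0.678%). The fit of the average counts unequal differences as spread and so passes fewer such probe sets. The 2 shares therefore cannot say whether the 2801 were more or less equal than others. Of the 19, 15 had the larger difference in WT and 4 in gun1gun5, and 16 were lower after far-red. In ATPMEPCRD, with all FR arrays under 16, the interaction followed the D levels, which averaged 669.8 in WT_D and 157 in gun1gun5_D, and the falls themselves cannot be ranked. AT5G11420 read 102.1 and 117.9 in WT_FR against 519.9 and 477.9 in WT_D, and 144.1 and 140.2 in gun1gun5_FR against 265.2 and 308.5 in gun1gun5_D, differences of -2.03 in WT and -0.93 in gun1gun5 (limma adjusted p of the interaction = 0.0338). AT2G19970 went the other way and read 54.6 and 73.5 in WT_FR against 33.1 and 27.3 in WT_D, and 120 and 103.1 in gun1gun5_FR against 9.5 and 10.4 in gun1gun5_D, a difference of 0.79 in WT and, with gun1gun5_D under 16, a rise of at least 6.97-fold in gun1gun5 (limma adjusted p of the interaction = 0.0361).

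COR47, a dehydrin, had the larger fall in gun1gun5, and its average call rests on most arrays. It read 1312.4 and 1216.8 in WT_FR against 1835.9 and 1362.8 in WT_D, and 461.9 and 459.3 in gun1gun5_FR against 1741.9 and 2149.5 in gun1gun5_D. The WT groups lay close together, while gun1gun5_FR stood apart from the other groups. The average of -1.18 ± 0.32 (limma adjusted p = 0.0499) was at -1.33 to -0.95, with no call, without any gun1gun5 array, WT_FR replicate 2 or WT_D replicate 1. No interaction passed in limma without gun1gun5_FR replicate 1 or gun1gun5_FR replicate 2, where 2305 and 2377 had an unadjusted p under 0.05. Without WT_FR replicate 1 or 2, WT_D replicate 2, or gun1gun5_D replicate 1 or 2, there were 7, 13, 55, 33 and 13, and without WT_D replicate 1 there were 144. Over all 22746 probe sets the WT and gun1gun5 differences correlated at Pearson's r of 0.53 and Spearman's rho of 0.42, a description across probe sets of separate arrays.

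The phyA arrays were not used to find these genes, and with 1 array for each treatment their differences have no test. Of the 1200 probe sets that rose, 830 (69.2%) were also higher in phyA_FR than in phyA_D, beside 52.1% of all probe sets. Of the 1579 that fell, 1124 (71.2%) were also lower, beside 46.7% of all. The sizes were smaller: the median phyA difference was 0.11 for the probe sets that rose and -0.12 for those that fell. Among those of at least 2-fold, the median was 0.44 in phyA beside 1.22 on average for the 87 that rose, and -0.25 beside -1.30 for the 288 that fell. These averages come from the arrays by which the probe sets were chosen, and phyA took no part in the choice. The smaller sizes in phyA, and the counts at 0.5 times the average, therefore follow in part from the choice. A phyA difference of at least 0.5 times the average was seen in 30 of the 87 and in 28 of the 288.

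Genes differed by this measure. COR27 had 165.2 in phyA_FR against 17.6 in phyA_D, a difference of 2.43 that equals its average in the other genotypes. AT1G56300, AT4G33980 and AT1G11210 differed in phyA by 1.52, 1.48 and 1.14. In the fit of the 4 group means AT1G11210 passed in neither genotype by itself (limma adjusted p = 0.101 in WT and 0.123 in gun1gun5). AT1G11210 averaged 1.37 ± 0.30 in WT and gun1gun5 (limma adjusted p = 0.0218), and lost that call, at 1.20 to 1.39, without either WT_FR array, gun1gun5_FR replicate 1 or gun1gun5_D replicate 2. ICL and PDF1.4 differed by 0.71 and 0.82, less than 0.5 times their averages, while Fes1A, TPP2 and DI21 were at -0.26, 0.00 and 0.04.

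Among genes that fell, phyA differences were mostly small beside those of the other genotypes. The middle of the 288, from the lower to the upper quartile, lay between -0.48 and -0.04 in phyA, against -0.13 to 0.16 for all probe sets. AT3G05730, AT3G26450 and AT5G37790 had phyA differences of -0.97, -0.78 and -0.54. SWEET17 had 899.4 in phyA_FR against 925 in phyA_D, and JAL22 had 941.2 against 1069.7. AT4G23670 had 1737 in phyA_FR against 1947.3 in phyA_D. The phyA_FR values of SWEET17, JAL22 and AT4G23670 were nearer to the D arrays than to the FR arrays of the other genotypes. None of the 30 genes with a symbol and the largest fall in their weaker genotype reached 0.5 times its average in phyA, while 8 of the 30 that rose did. The lowest phyA difference of those that fell was that of EXPA8, with 66.3 in phyA_FR against 162.7 in phyA_D (-1.12). Outside these 30, DFR had 58.3 in phyA_FR against 102.3 in phyA_D (-0.67).

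Across the 375 agreeing probe sets of at least 2-fold, the average and the phyA difference correlated at Pearson's r of 0.64 and Spearman's rho of 0.53. Over all 22746 probe sets these were 0.28 and 0.22. The 375 were chosen for large averages of either sign, so their correlation reflects sign as well as size. These values are descriptions over probe sets of 1 pair of phyA arrays. The actin 3′ to 5′ ratio was 3.65 in phyA_FR and 4.25 in phyA_D, above the 8 other arrays, and the GAPDH ratio was 1.67 and 1.34 in them, against 0.925 to 1.27 in the 8. The part of RNA integrity in the phyA differences was not tested.

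**Figure D4:**
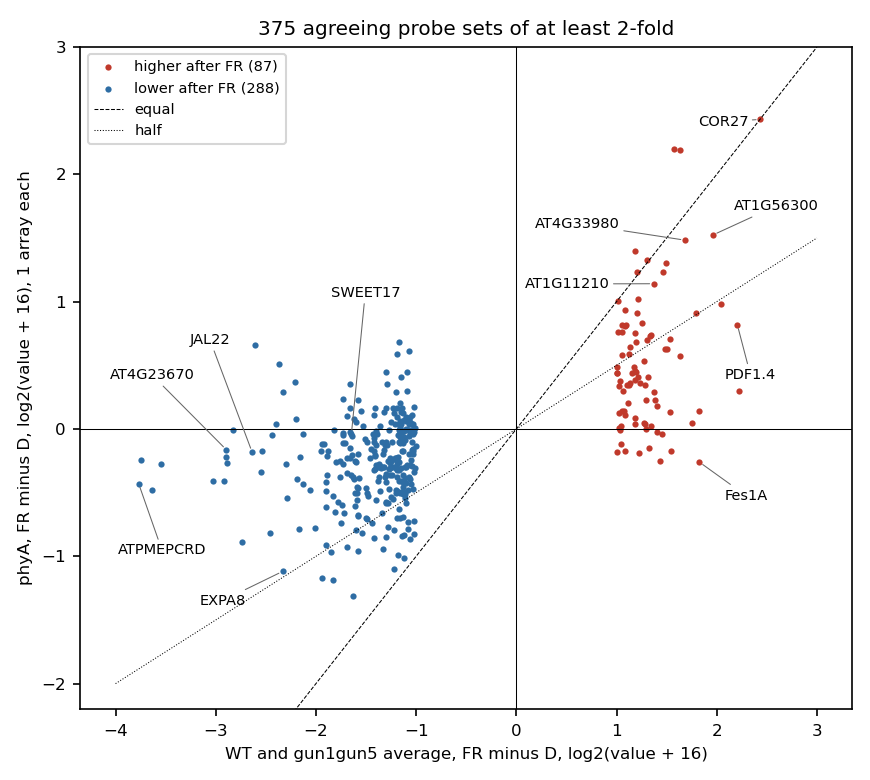
Log2 difference of phyA_FR minus phyA_D (y axis, 1 array each) against the average FR minus D difference of WT and gun1gun5 (x axis) for the 375 agreeing probe sets of at least 2-fold, both on log2(value + 16). COR27 lies on the line of equal differences, whereas most of the 288 probe sets that fell lie above the dotted line of 0.5 times the average, with a median of -0.25.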

How the data were processed

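The arrays were Affymetrix ATH1 (25K) chips, 1 for each pool of seedlings. The intensity values are those deposited by the authors, 1 linear value per probe set and array, and the software that summarised them is not given in the sources used here. Their mean after trimming the highest and lowest 2% was about 100 on every array, so equal total signal was imposed on all groups. Intensities were analysed as log2(value + 16), which shrinks differences of dim probe sets, and values under 16 were treated as bounds. The 64 array controls were left out. The 22746 others were fitted with limma 3.58.1 in R 4.3.3 (FR against D plus genotype, variance trend, two-sided, Benjamini-Hochberg adjustment over all of them, threshold 0.05), with 5 residual degrees of freedom. The interaction and each genotype's own difference came from a fit of the 4 group means. The procedure was tested on simulated data with equal differences in both genotypes, brighter probe sets and independent normal noise. Unequal differences, dim probe sets and linked replicates were not covered by it. The number of arrays, not a read depth, limits the precision.

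Platform annotation gave 1 gene for 13513 probe sets, several for 503 and none here for 8730. Of the 13513, 13436 were found in RefSeq's TAIR10.1 table and 77 kept the platform's symbol. A gene called CCR2 that is a cinnamoyl-CoA reductase was left out of the clock list. Named genes were the 12 higher and 12 lower with 1 gene and the largest difference in the weaker genotype, and up to 3 called members of each list. The 30 in each direction with a symbol, family members and genes with unequal differences were added after their values were seen. Members and lists were chosen with earlier results of these data known. The labels do not say whether replicate numbers pair the arrays, and the main fit did not pair them. Same-numbered arrays of different groups had deviations correlating at 0.05 to 0.14, which does not settle it. Alternatives changed the pseudocount, normalization, filter on dim probe sets, variance trend, arrays, model and replicate block. Promoter motifs and sequences were not analysed here.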

Additional observations from a re-analysis of the deposited data

Results flagged for a closer look

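In 9 genes the FR difference of gun1gun5 minus that of WT passed in the interaction test of limma although the average over the genotypes passed too. The difference was negative in COR47, at -1.71 log2 units, where both genotypes were lower after far-red and gun1gun5 more so. In AT2G19970, which was higher after far-red, it was 1.51, with both gun1gun5_D arrays under 16. The values were 2.04 in AT4G37220, 1.57 in DRT100 and 1.10 in AT5G11420, which were lower after far-red with the larger difference in WT. AT3G17640, at 1.01, had both WT_FR arrays under 16. In ATPMEPCRD, at 2.38, and AT4G09890, at 1.00, all FR arrays were under 16, so that these values follow the D levels and do not rank the falls. AT1G72230, at 2.08, was under 16 on all gun1gun5 arrays, so that its difference in gun1gun5 was not measurable. WT_D alone lists sucrose, so the genotype and the listed medium cannot be told apart in these values. Each group had 2 arrays, too few to look for single outlying samples.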

How the results depend on the processing

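The count of 2801 lay between 1932 (replicate block within each genotype, 4 pairs) and 3733 (all 10 arrays with 6 group means) under the alternatives that kept all 8 arrays. It was 2964 and 2751 with pseudocounts of 1 and 64, and 2679 with the replicate number as a block. It ranged from 1748 to 2444 with 1 array left out. Fits of the 4 gun1gun5 arrays or the 4 WT arrays, added after seeing the data, gave 634 and 1125. The agreeing count of 2779 was 2601 and 1877 with the 2 replicate blocks, and 679 where both genotypes had to pass on their own. Fits of 1 genotype cannot show agreement between genotypes. The interaction's 215 calls moved to 396 and 323 above the 40th and 60th percentiles of mean level, where fewer probe sets were tested, to 152 and 30 with the replicate blocks, and to between 0 and 144 with 1 array left out. At the limit of 0, limma found 2305 and 2377 at an unadjusted p under 0.05. The causes of these moves were not tested. Above the 60th percentile 49.8% of calls were higher, against 43.2% in all. Of the 2801, 59.3% to 75.7% passed again with 1 array left out. Of 128 named genes that passed, 88 did so under every alternative that kept them. Over 2478 comparisons of a named gene with an alternative, 256 no longer passed, 7 newly passed and 2215 stayed on the same side of the threshold. No gene that passed changed sign, while 4 of the 13 named genes that did not pass, all with averages near 0, did so in 11 comparisons. Dim signal limits 62 agreeing probe sets under 16 on all 8 arrays. The planned promoter motif search was not run.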
